A study of Homo sapiens with 2 samples.

Results

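Protein-coding promoter peaks within 1 kb were 670 of the 10041 peaks in the list, or 6.67%, and were assigned to 646 genes. They were chosen by the authors' own annotation: the nearest peak edge lay no more than 1 kb from a transcript start, and the gene of that transcript was protein-coding. The annotation rule itself uses no peak height. The peaks came from T98G cells, an established human glioblastoma line, that received 10 µM crotonate for 48 h. Chromatin was immunoprecipitated with an antibody against lysine crotonylation in 1 ChIP library, and 1 input library of the same treated cells served as the background. No untreated sample was analysed here, so nothing below is an effect of crotonate. With 1 library of each kind there was no replicate, and every interval covers counting error over peaks or genes only.

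Lysine crotonylation is an acyl mark placed on histones and other proteins from crotonyl-CoA, which cells can make from added crotonate. On histones it is known mainly from active promoters and enhancers, where it lies close to transcription starts and overlaps acetylation. A promoter holds the start and the DNA just before it, often rich in CpG dinucleotides, and a gene can have several starts, each giving another transcript.

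To show the DNA under these peaks, promoters are printed in which the peak covered 200 or more of the 250 bases before the start. They are from genes whose assigned start fell on the same base as the start of the gene's listed RefSeq promoter (GRCh38.p14). That start can lie inside the gene, as at ARHGDIB, 12705 bp from the RefSeq 5′ end. Of 51 such promoters, 19 had peak-covered bases before the start and 7 reached 200 bases. CARTPT, which codes for a neuropeptide precursor, was added because its peak held 3 fragments and covered a CRE palindrome. All were chosen after their values were seen. Each line gives the 250 bases up to the base before the start, 5′ to 3′ on the gene's strand, and capitals mark the bases under the peak.
CARTPT: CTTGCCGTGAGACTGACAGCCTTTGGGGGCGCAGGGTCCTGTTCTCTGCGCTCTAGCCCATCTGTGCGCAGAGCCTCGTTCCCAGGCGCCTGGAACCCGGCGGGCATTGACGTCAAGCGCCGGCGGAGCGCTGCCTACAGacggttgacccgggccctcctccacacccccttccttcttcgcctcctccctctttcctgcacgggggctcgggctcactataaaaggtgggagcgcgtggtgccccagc
PRPH2: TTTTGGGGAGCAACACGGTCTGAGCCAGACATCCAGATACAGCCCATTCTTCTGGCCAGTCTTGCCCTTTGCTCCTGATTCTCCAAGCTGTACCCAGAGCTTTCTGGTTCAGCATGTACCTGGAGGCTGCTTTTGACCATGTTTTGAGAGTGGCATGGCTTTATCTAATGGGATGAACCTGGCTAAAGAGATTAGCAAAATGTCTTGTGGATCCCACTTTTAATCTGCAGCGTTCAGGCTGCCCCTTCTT
TMEM131: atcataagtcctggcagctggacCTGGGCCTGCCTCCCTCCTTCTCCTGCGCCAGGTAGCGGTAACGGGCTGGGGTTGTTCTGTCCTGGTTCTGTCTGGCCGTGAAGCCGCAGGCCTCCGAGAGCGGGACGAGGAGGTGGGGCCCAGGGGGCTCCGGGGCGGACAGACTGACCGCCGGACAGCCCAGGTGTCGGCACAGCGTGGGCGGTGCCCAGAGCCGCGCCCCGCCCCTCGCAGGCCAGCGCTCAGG
FABP3: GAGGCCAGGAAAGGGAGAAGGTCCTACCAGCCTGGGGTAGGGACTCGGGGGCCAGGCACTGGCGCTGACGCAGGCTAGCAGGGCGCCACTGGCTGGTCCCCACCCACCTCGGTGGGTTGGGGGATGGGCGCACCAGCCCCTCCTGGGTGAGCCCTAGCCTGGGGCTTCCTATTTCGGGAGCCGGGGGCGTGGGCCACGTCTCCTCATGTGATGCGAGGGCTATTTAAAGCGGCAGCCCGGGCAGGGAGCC
COLQ: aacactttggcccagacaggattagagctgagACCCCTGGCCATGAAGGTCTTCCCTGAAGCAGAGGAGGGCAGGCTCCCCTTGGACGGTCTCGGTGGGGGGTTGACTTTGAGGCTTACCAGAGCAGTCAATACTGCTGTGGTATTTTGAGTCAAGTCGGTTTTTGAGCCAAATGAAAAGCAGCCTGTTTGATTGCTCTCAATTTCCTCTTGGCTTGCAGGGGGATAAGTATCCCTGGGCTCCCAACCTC
BNIP5: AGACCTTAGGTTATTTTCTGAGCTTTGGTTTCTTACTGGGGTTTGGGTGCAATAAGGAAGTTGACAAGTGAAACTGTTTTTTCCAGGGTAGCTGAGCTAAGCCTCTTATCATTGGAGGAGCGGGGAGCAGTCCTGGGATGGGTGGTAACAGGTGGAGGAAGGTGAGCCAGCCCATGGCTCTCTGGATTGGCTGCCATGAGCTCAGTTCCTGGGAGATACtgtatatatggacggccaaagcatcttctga
SH3D21: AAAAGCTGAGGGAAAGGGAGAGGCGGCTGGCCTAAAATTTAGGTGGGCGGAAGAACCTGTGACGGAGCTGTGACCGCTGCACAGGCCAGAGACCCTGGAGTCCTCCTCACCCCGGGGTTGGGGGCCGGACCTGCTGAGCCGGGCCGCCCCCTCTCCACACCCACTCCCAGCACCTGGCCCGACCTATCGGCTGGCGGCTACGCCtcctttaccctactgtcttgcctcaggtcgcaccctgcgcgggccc
TCAF1: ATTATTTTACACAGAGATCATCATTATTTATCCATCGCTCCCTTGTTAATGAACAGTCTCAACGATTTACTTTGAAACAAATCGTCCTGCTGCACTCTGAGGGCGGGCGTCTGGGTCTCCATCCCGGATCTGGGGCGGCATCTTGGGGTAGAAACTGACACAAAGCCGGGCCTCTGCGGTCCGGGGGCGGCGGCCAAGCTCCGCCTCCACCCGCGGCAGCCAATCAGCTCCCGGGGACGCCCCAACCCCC
The CARTPT peak (chr5:71718900-71719164, plus strand) had 3 fragments, was 3.64-fold enriched and covered 140 of these bases, among them the only TGACGTCA of the 8 promoters. The PRPH2 peak (chr6:42722522-42722869, minus strand), at the gene of a photoreceptor disc protein, had 3 fragments and covered all 250 bases. The other 6 peaks held 2 fragments, with enrichments between 2.54-fold at SH3D21 and TCAF1 and 2.73-fold at TMEM131. These promoters were of unlike composition: 71.2% of the bases were G or C at TMEM131 with 20 CpG dinucleotides, against 48.8% and 2 CpG at PRPH2. FABP3 codes for a fatty acid carrier of muscle and heart, COLQ for the collagen tail of acetylcholinesterase, and both peaks lay across the start.

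The word promoter covered several kinds of start in this list. The transcript whose start was assigned was protein-coding for 330 of the 670 peaks, or 49.3% (45.4 to 53.1%, exact binomial 95% interval). For the other 340 the transcript of the protein-coding gene was itself not of that type: 148 were retained introns, 145 processed transcripts, 46 targets of nonsense-mediated decay and 1 awaited experimental support. RefSeq symbols could be matched for 667 peaks and 643 genes, which is 3.21% of the 20056 protein-coding genes there. Of these 667 peaks, 188 (28.2%, 24.8 to 31.8%) had an assigned start within 1 kb of the gene's RefSeq 5′ end, and 65 shared its base. The other 479 (71.8%) were at starts farther off, and 465 of them were inside the gene, with a median offset of 22.8 kb over the 479. Coding transcripts made up 77.1% of the starts near the 5′ end, against 38.2% of those farther off. Most of these peaks therefore lay at starts over 1 kb from the RefSeq 5′ end, which is the outer end of the gene. Some of these starts were still that of the gene's listed RefSeq promoter, as at ARHGDIB, 12705 bp inside the gene.

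**Figure D1:**
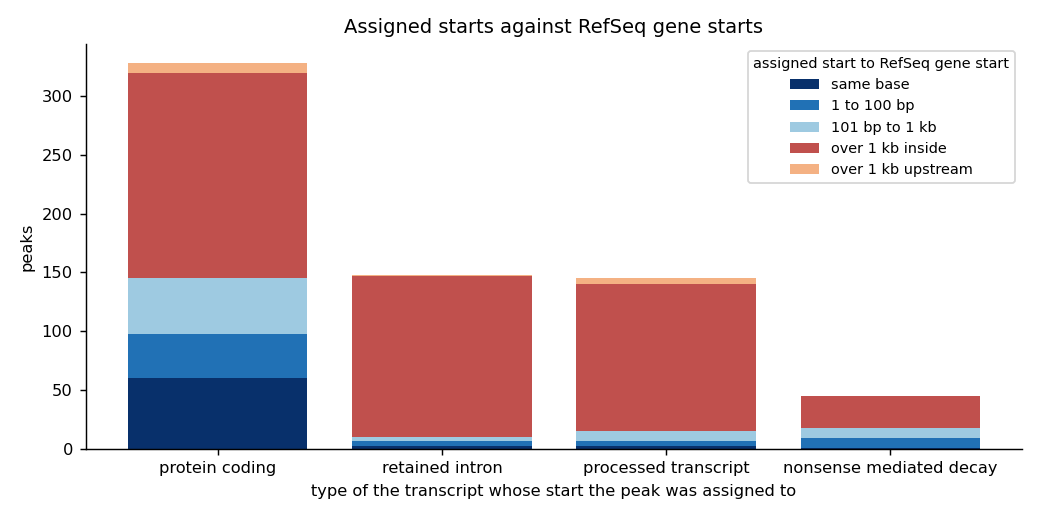
Number of peaks (vertical axis) by the type of the transcript to whose start the peak was assigned (horizontal axis), coloured by the distance of that start from the RefSeq 5′ end of the gene. The 1 peak of a transcript awaiting experimental support and 2 coding and 1 nonsense-mediated decay peak with no RefSeq match are not drawn. In all 4 types most starts lay over 1 kb inside the gene, 175 of 330 for coding transcripts and 137 of 148 for retained introns.

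The peaks were low, and their heights were close to those elsewhere in the list. Fold enrichment is the ratio of ChIP reads over the local background, each with 1 added, and with the p-value it gave back the whole number of fragments stacked at every summit. Of the 670 peaks, 476 held 2 fragments, 176 held 3, 17 held 4 and 1 held 5, and enrichment ran between 2.52-fold and 5.09-fold with a median of 2.73-fold. The smallest q-value was 0.266, and 494 peaks had a q-value of 1. The 194 peaks with 3 or more fragments were 29.0% of the total (25.5 to 32.6%), beside 25.8% of all 10041 peaks.

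Against other peaks the difference in height stayed within or at the edge of counting error. The 29.0% compared with 25.5% of the 9371 other peaks, a difference of 3.42 points (−0.0061 to 7.07, Newcombe 95% interval). It compared with 27.7% of the 620 protein-coding promoter peaks at 1 to 3 kb (difference 1.21 points, −3.71 to 6.11). It compared with 24.5% of the 363 peaks within 1 kb of starts of other gene types (4.44 points, −1.29 to 9.89). Each of the 3 intervals contained 0. Peaks with 4 or more fragments were 2.69% of the promoter peaks within 1 kb and 2.20% of the other peaks. They were 4.19% of those at 1 to 3 kb (difference −1.51 points, −3.63 to 0.503) and 1.65% of those of other gene types. The intervals of these 3 differences contained 0 as well. The local background was at its lowest value for 31.0% of these peaks against 36.8% of the other peaks, a difference of −5.73 points (−9.25 to −1.997), so a local background above the lowest value was more frequent at these promoters than in the rest of the list. Against the promoter peaks at 1 to 3 kb the difference was −2.34 points (−7.44 to 2.75) and against those of other gene types −4.49 points (−10.6 to 1.47), both within counting error. The largest Poisson p-value in the list was 0.000987, so a peak over a high enough local background must hold 3 or more fragments to be listed. Height and local background were therefore not independent. The part of the local background in the heights was not tested.

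**Figure D2:**
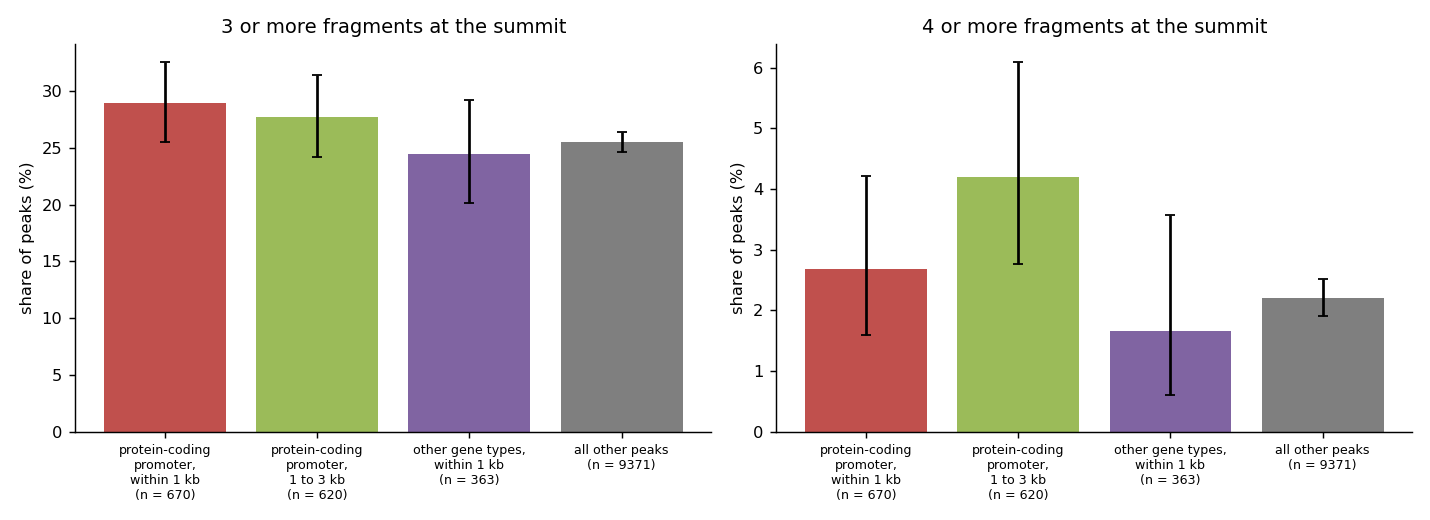
Share of peaks (vertical axes, %) with 3 or more (left) and 4 or more (right) fragments at the summit, for protein-coding promoter peaks within 1 kb, those at 1 to 3 kb, peaks within 1 kb of other gene types and all other peaks. Bars are shares and error bars exact binomial 95% intervals over peaks; at 3 or more fragments the bars stand between 24.5% and 29.0% and the intervals of the 3 promoter groups overlap.

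Among the members, height went with the type of transcript. At starts of coding transcripts 113 of 330 peaks (34.2%) held 3 or more fragments, against 81 of 340 (23.8%) at starts of the other transcripts, a difference of 10.4 points (3.55 to 17.2). This split was 1 of 4 that were looked at (transcript type, distance from the 5′ end, overlap with the start, chromosome), it was noticed after the values were seen, and the interval was not adjusted for that. At 1 to 3 kb the same comparison gave 25.7% against 29.7% (−3.98 points, −11.0 to 3.07), and the change between both distances was 14.4 points (4.55 to 24.1). The coding excess was 13.8 points (5.43 to 22.3) at starts over 1 kb from the 5′ end and 4.76 points (−11.4 to 18.0) at those nearer. By distance from the 5′ end alone the shares were 29.3% near it and 28.6% farther off, a difference within counting error (0.65 points, −6.70 to 8.53). The median local background was 0.130 fragments for coding and 0.139 for other transcripts, and the median peak length was 318.5 and 319 bp.

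Averaged over 1 kb on each side, peaks were denser across and after the start than before it. The start lay under 127 peaks (19.0%), 231 peaks (34.5%) ended upstream of it and 312 (46.6%) began downstream. Given how many positions a peak of the mean length of 340 bp can take, this is 37.3 peaks per 100 bp across the start (31.1 to 44.4, exact Poisson), 23.1 upstream (20.2 to 26.3) and 31.2 downstream (27.8 to 34.9). Positions across the start were used 1.37 times as often as those within 1 kb beside it (1.12 to 1.67). That average includes sparse steps farther off. The 100 bp steps next to the start held 32 peaks upstream (21.9 to 45.2) and 38 downstream (26.9 to 52.2). These were close to the rate across the start, so no excess over the nearest positions was shown. Among peaks beside the start 42.5% were upstream (38.3 to 46.8%), so the downstream side held more. The same share was 46.9% at 1 to 3 kb, and the difference of −4.39 points (−10.1 to 1.33) did not exceed counting error. At 1 to 2 kb there were 16.9 peaks per 100 bp and at 2 to 3 kb 14.2. Each peak was assigned to its nearest start of any gene, and where starts lie closer together than that, fewer bases can be assigned at the longer distances. How many bases were eligible at each distance was not computed.

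**Figure D3:**
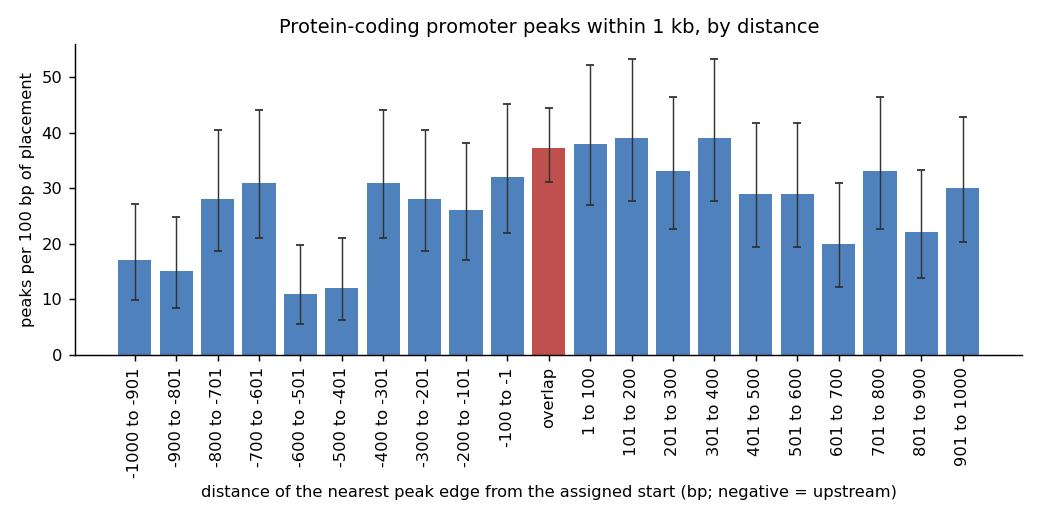
Peaks per 100 bp of possible placement (vertical axis) by the distance of the nearest peak edge from the assigned start in bp (horizontal axis, negative values upstream); error bars are exact Poisson 95% intervals. The red bar is the 127 peaks that cross the start, at 37.3 per 100 bp; the 100 bp steps next to it held 32 peaks upstream and 38 downstream.

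Of the peaks across the start 36.2% held 3 or more fragments, against 24.2% of those upstream and 29.5% of those downstream. Set against all peaks beside the start (27.3%), the difference was 8.96 points (0.209 to 18.3). This was another of the 4 splits looked at, and its interval was not adjusted either. Peaks across the start were slightly longer as well, with a median of 326 bp against 318 bp. A longer peak can cross a start from more positions, and the part of length in the difference was not tested. The strand was even, with 331 peaks (49.4%) at genes on the plus strand.

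Peak length followed the number of fragments. The median was 319 bp (313 to 325), with a range of 258 to 890 bp, against 314 bp for the other peaks. Peaks of 2 fragments had a median of 311 bp (301 to 319), those of 3 fragments 335.5 bp (319 to 349) and those of 4 or more 387.5 bp (344 to 451). Broad peaks were rare: 25 (3.73%) were longer than 500 bp, against 2.96% of the other peaks. The longest, at TTC23, spanned 890 bp.

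The 18 peaks with 4 or more fragments fell at genes of unrelated function. Of them 12 were at coding transcripts, 5 had a start within 1 kb of the RefSeq 5′ end and 12 had one farther off, and 1 gene had no RefSeq match. The highest was at COPG1 (chr3:129260071-129260551), a subunit of the COPI coat that buds Golgi vesicles, with 5 fragments and 5.09-fold enrichment. It covered the start of a retained-intron transcript 10.6 kb inside the gene.

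Among the others, AZIN2, an antizyme inhibitor that keeps polyamine synthesis active, had 4 fragments (4.55-fold) 608 bp after its start. SARDH, the mitochondrial sarcosine dehydrogenase, had 4 fragments (4.55-fold) 22 bp after a coding start. MCCC1, a subunit of methylcrotonoyl-CoA carboxylase in leucine breakdown, had 4 fragments (4.39-fold) at a processed transcript 78.8 kb inside the gene. PDE4B, which hydrolyses cyclic AMP, had 4.24-fold enrichment 64 bp after a processed transcript's start. The enzyme MCCC1 acts on a methylated relative of crotonyl-CoA, and its peak lay far from the RefSeq 5′ end of the gene.

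ADAT1, a tRNA adenosine deaminase, had 4.27-fold enrichment 665 bp before a coding start. ELP4, an Elongator subunit, had 4.24-fold enrichment 953 bp after a processed transcript's start, and SECISBP2L, related to the selenocysteine insertion factor, had 4.39-fold enrichment 320 bp after a coding start 13 bp from the RefSeq 5′ end. PTMA, which codes for the small acidic chromatin protein prothymosin alpha, had a 415 bp peak of 4.50-fold across the start of a processed transcript. SOX12, an SRY-box transcription factor, had 4.24-fold enrichment 204 bp after a start 43 bp from the RefSeq one. SOX12 and SECISBP2L were thus among the few high peaks near the RefSeq 5′ end.

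DOCK4, an activator of Rap and Rac GTPases, and PPP2R5B, a regulatory subunit of protein phosphatase 2A, were both at 4.24-fold. KRT31, a hair keratin, was at 4.24-fold 391 bp after a start on the same base as in RefSeq. NEO1, the netrin receptor neogenin, was at 3.68-fold and LAMA5, a laminin chain of basement membranes, at 3.25-fold. LAMA5 had 4 fragments over the highest local background of all 670 peaks, 0.538, and a q-value of 1. TTC23, CCDC9B and AC010325.1 were at 4.54-fold, 4.50-fold and 4.55-fold, and the last has no RefSeq match. The 7 peaks next in order held 3 fragments over the lowest background, all at 3.64-fold: FAAP20 of the Fanconi core complex, ARHGEF16, PLA2G2A, DNALI1, CYB5RL, NEURL3 and TMEM163. Many more peaks tied with these, so the order within that height carries no information.

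Few genes had more than 1 of these peaks. Exactly 2 were found at 24 genes and more at none, and the pairs were 1076 to 402121 bp apart with a median of 16463.5 bp. Only 3 pairs were closer than 2 kb. CARD10, a scaffold of NF-κB signalling, alone had both peaks assigned to the same start, at 763 bp before and 862 bp after it. Both peaks of MT1X, and both of HPRT1, lay within 1 kb of that gene's RefSeq start, though their assigned starts differed. At 10 of the 24 genes 1 of the 2 peaks had 3 or more fragments, and at MAN2A2, a Golgi mannosidase, both had 3. The widest pair was at DCDC1 and other pairs were at CAMK1, a calmodulin-dependent kinase, GCN1, which senses stalled ribosomes, GCNT3, a mucin glycosyltransferase, PGAP2, RNF217 and PROX2. Most pairs were assigned to separate starts of a gene and lay 2 kb or more apart.

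At 10 peaks, starts of genes on opposite strands lay close together. A RefSeq protein-coding start of the window table lay within 1 kb of 154 peaks, and 10 of these had a pair of such starts, all on opposite strands. The pairs were TRPT1 with NUDT22, MRE11 with ANKRD49, OSGEP with APEX1, CIAO2B with CES2, ELP5 with CTDNEP1, PLCG1 with LOC124904903, ZMAT5 with UQCR10, CBY1 with FAM227A, MRPS27 with PTCD2 and NOXA1 with EXD3. MRE11 and APEX1 act in DNA repair, OSGEP and ELP5 in tRNA modification. The ELP5 peak held 3 fragments and the other 9 held 2. At these 10 peaks the list names 1 gene only, and the files do not tell to which of both the peak belongs.

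Gene families were hit about as often as protein-coding genes at large. Of 62 families and functional groups, 58 had an exact binomial interval that contained 3.21%, the share over all 20056 genes, 4 lay above it and 0 below. Their 5411 genes had such a peak at 187 (3.46%), against 456 of 14645 (3.11%) outside the families. The intervals were not adjusted over the 62 families, and the families were chosen with earlier results of these data known.

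Motor proteins, repair proteins and receptor phosphatases were among the 4 families above. Kinesins, dyneins and myosins, which move cargo and filaments, had 10 of 124 genes (8.06%, 3.94 to 14.3%), led by DNALI1, the hair-cell myosin MYO7A (both 3.64-fold) and the smooth muscle myosin MYH11 (3.56-fold). A list of DNA repair genes drawn up by symbol, which leaves out OGG1, TONSL and MRE11 although they had such peaks, had 7 of 84 (8.33%, 3.42 to 16.4%), with RAD50 of the double-strand break sensor at 3.64-fold and the excision nuclease subunit ERCC1 and the Ku subunit XRCC5 both at 2.94-fold. Receptor protein tyrosine phosphatases had 4 of 21 (19.0%, 5.45 to 41.9%), PTPRK and PTPRS at 2.73-fold, PTPRJ at 2.67-fold and PTPRN, and all 4 peaks held 2 fragments. These 3 families have long genes, with medians of 71.6, 46.5 and 189 kb against 24.1 kb for all genes. Against the 4.85% of the longest 5014 genes, only the interval of the receptor phosphatases lay above, among all 62 families. Those 5014 genes had a median of 128 kb, below the 189 kb of the receptor phosphatases, so length was not matched for this family of 21 genes.

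**Figure D4:**
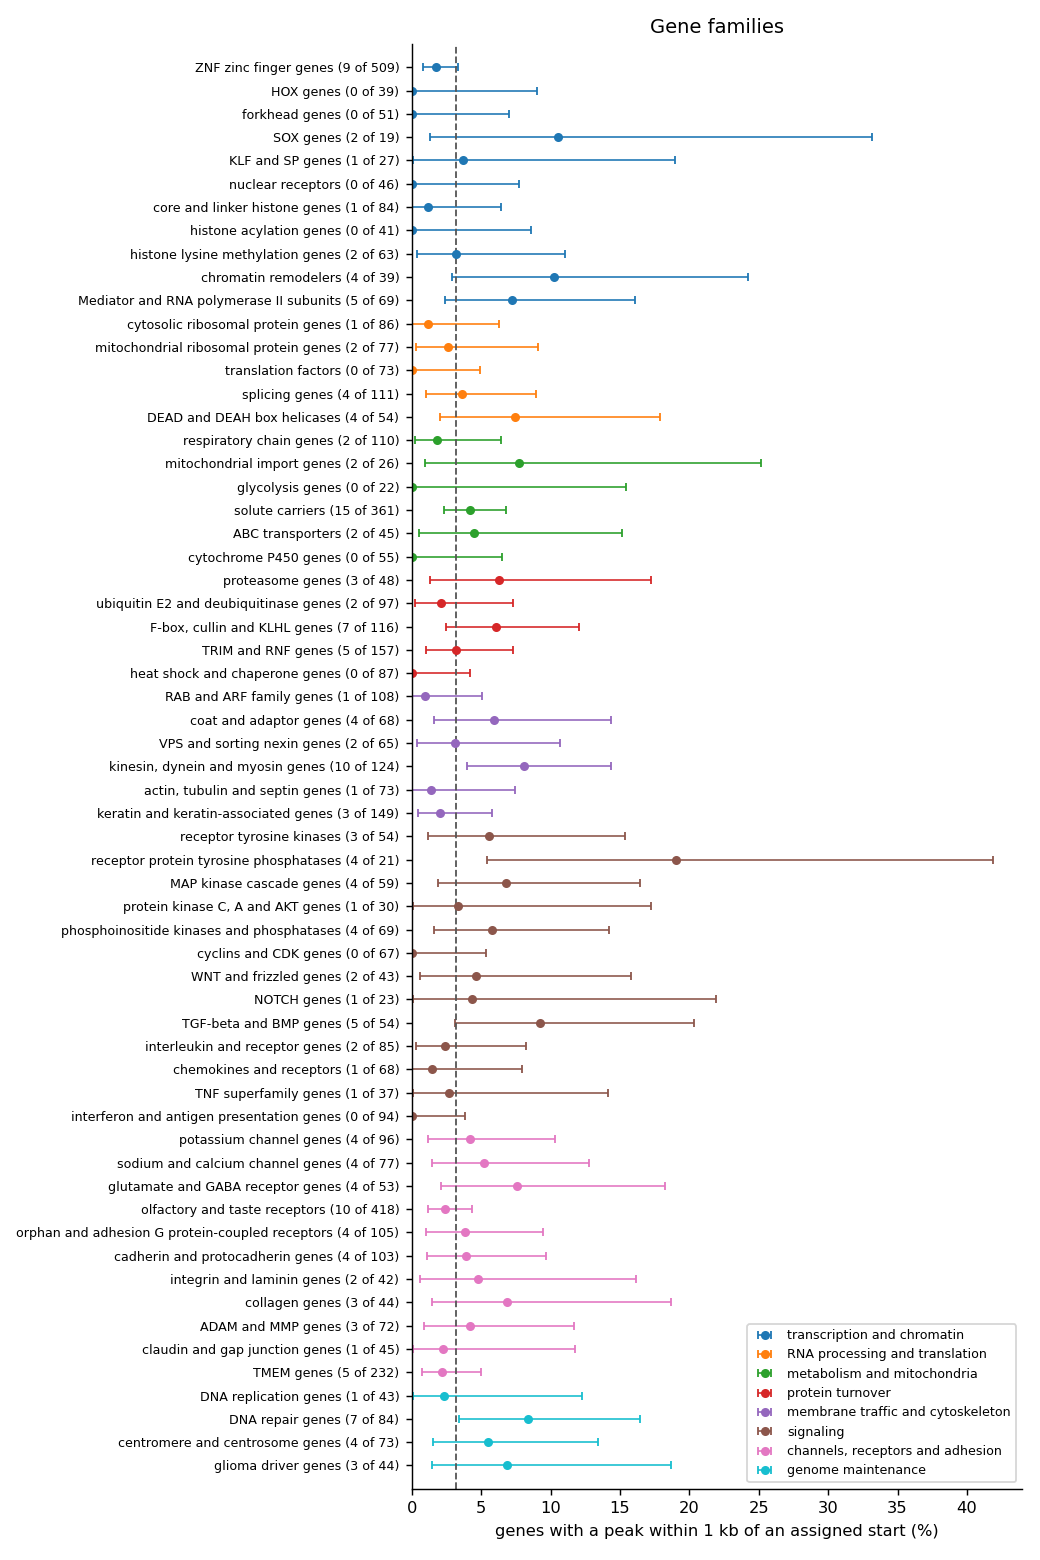
Share of the genes of each of 61 of the 62 families with a protein-coding promoter peak within 1 kb (horizontal axis, %), with exact binomial 95% intervals; colours are 8 themes, the number of genes hit stands beside each name and the dashed line is the 3.21% of all protein-coding genes. The line runs through 58 of the 61 intervals drawn, the family not drawn is the fourth whose interval lay above it, and most families rest on 5 or fewer genes.

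Genes of chromatin and transcription had such a peak at a share whose interval contained that of all genes. Their 11 families had 24 of 987 genes (2.43%, 1.56 to 3.60%). Chromatin remodelers had 4 of 39, with the SWI/SNF subunits ARID1B at 3.64-fold and ARID1A at 3.62-fold. Mediator and RNA polymerase II subunits had 5 of 69, with MED15 at 3.62-fold and MED17 at 3.38-fold. Zinc finger genes had 9 of 509 (1.77%, 0.812 to 3.33%), core and linker histone genes 1 of 84 (H2BU1, H2BC26 in RefSeq, at 2.72-fold). Such peaks lay at the acyl-CoA synthetase ACSS1 (2 fragments, 2.54-fold) and at TRRAP (3 fragments, 3.46-fold). They also lay at ELP5 (3 fragments, 3.64-fold) and ELP4 of the Elongator acetyltransferase complex. The ELP4 start was that of a processed transcript 269.9 kb inside the gene. These genes were named because they had such peaks, and the share among like genes was not counted. The list of lysine acylation genes leaves them out. The writers, erasers, readers and crotonyl-CoA enzymes in that list had 0 of 41. This allows a share of up to 7.32% by a limit of 3 counts and up to 8.60% by the exact interval. HOX genes (0 of 39), forkhead genes (0 of 51) and nuclear receptors (0 of 46) had none either.

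The next families, mainly ones used by most cells, gave counts on both sides of the share of all genes, and all their intervals contained it. Proteasome genes had 3 of 48, DEAD and DEAH box helicases 4 of 54 and splicing genes 4 of 111. Cytosolic ribosomal protein genes had 1 of 86 (RPS27A at 2.63-fold), translation factors 0 of 73, respiratory chain genes 2 of 110, glycolysis genes 0 of 22 and heat shock and chaperone genes 0 of 87, for which the exact interval reached 4.15%. Cyclins and CDK genes had 0 of 67, cytochrome P450 genes 0 of 55, and interferon and antigen presentation genes 0 of 94, for which the exact interval reached 3.85%. In all 10 families had none.

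Genes of receptors, transporters and filaments had such peaks as well. Olfactory and taste receptors had 10 of 418 genes (2.39%, 1.15 to 4.36%), with OR5K2 at 3.64-fold, OR10A6 at 3.48-fold and OR52L1 at 3.46-fold. Glutamate and GABA receptor genes had 4 of 53, with GRIN2B at 3.39-fold and GRIN1 at 2.73-fold. Solute carriers with an A in the family part of the symbol had 15 of 361 (4.16%), a list that leaves out SLC35F5 with its 2 peaks, among them the anion exchanger SLC4A3 at 3.54-fold and the manganese exporter SLC30A10 at 3.39-fold. Keratin and keratin-associated genes had 3 of 149. Expression of these genes in T98G cells was not measured in this series.

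Signalling genes had 36 of 806 (4.47%, 3.15 to 6.13%) and genome maintenance genes 15 of 244 (6.15%, 3.48 to 9.94%). The genome maintenance list includes 44 glioma driver genes, and without them, a count added after the data were seen, it had 12 of 200 (3.14 to 10.2%), an interval that contained 3.21%. TGF-beta and BMP genes had 5 of 54 (9.26%, 3.08 to 20.3%), with TGFBI, an extracellular matrix protein induced by TGF-beta, at 3.64-fold. Receptor tyrosine kinases had 3 of 54, with the insulin-like growth factor receptor IGF1R at 3.38-fold, NTRK3 at 2.94-fold and FGFR1 at 2.73-fold. All 3 of these peaks were at starts of processed transcripts. Of 44 glioma driver genes 3 had a peak: ARID1A, IDH2, the mitochondrial isocitrate dehydrogenase, at 3.39-fold, and FGFR1.

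Chromosomes differed in how many of their genes were hit. Overall there were 3.34 peaks per 100 protein-coding genes. The intervals of chromosomes 15 (5.83, 4.09 to 8.08), 16 (5.74, 4.24 to 7.59), 20 (5.59, 3.77 to 7.98) and 11 (5.07, 3.92 to 6.45) lay above this, and those of chromosomes 4 (1.30), 10 (1.50), 21 (0.837) and X (0.708) lay below. Chromosome 11 held most, 66 peaks. The local background moved with some of these. Its mean was 0.173 on chromosome 15, 0.176 on chromosome 20, 0.151 on chromosome 11 and 0.144 on chromosome 16. It was 0.104 on chromosome 4, 0.122 on chromosome 10, 0.0999 on chromosome 21 and 0.117 on chromosome X, against 0.143 over all 670 peaks. On chromosome 7 it was 0.160, with only 2.35 peaks per 100 genes (1.47 to 3.55). Copy number in T98G was not measured here, and its part was not tested.

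Set against all peaks of the same chromosome, the picture was another. On chromosome 20 the promoter peaks were 6.30% of its 476 peaks, near the 6.67% over all chromosomes, so the whole list was dense there. Among peaks at or above the median enrichment, chromosome 20 stood at 0.657 times the value of all chromosomes per gene (0.241 to 1.43), against 1.67 times (1.13 to 2.39) among all 670. That cut keeps peaks of 2 fragments only over the lowest local background, and the mean background on chromosome 20 was 0.176. The change in this ratio is therefore partly set by the cut. On the gene-rich chromosome 19 the promoter peaks were 18.1% of 248 peaks (13.6 to 23.5%), and on chromosomes 16, 17, 22 and 11 they were 12.8%, 11.8%, 11.9% and 11.3%. Height varied too: 20 of 36 peaks on chromosome 15 (55.6%) and 7 of 11 on chromosome 10 held 3 or more fragments, against 5 of 30 on chromosome 20. Chromosome 15 also held 4 of the 18 peaks with 4 or more fragments. Leaving it out gave 27.4% with 3 or more fragments in place of 29.0%.

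**Figure D5:**
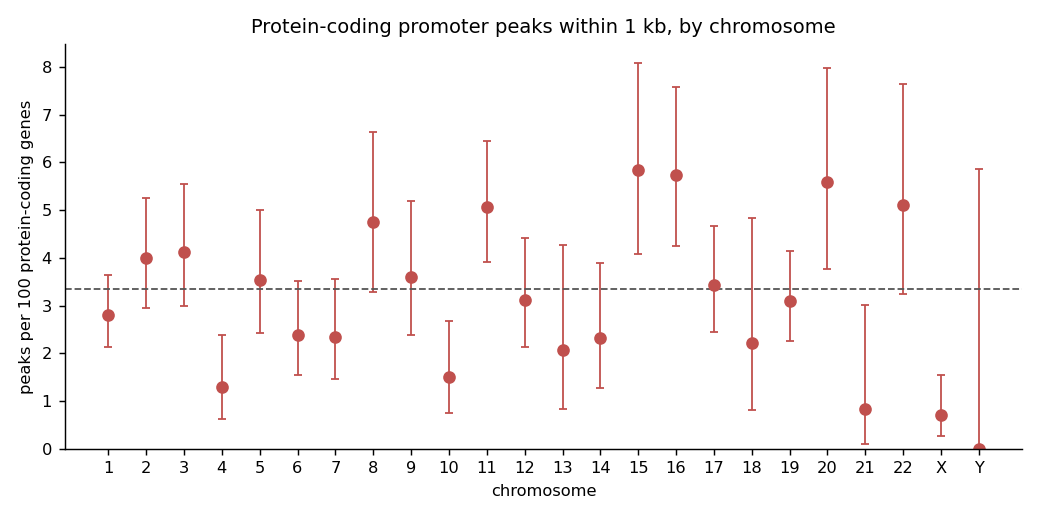
Protein-coding promoter peaks within 1 kb per 100 protein-coding RefSeq genes (vertical axis) on each chromosome (horizontal axis), with exact Poisson 95% intervals. The dashed line is 3.34, the value over all chromosomes; chromosomes 11, 15, 16 and 20 lie above it with their intervals, and 4, 10, 21 and X below.

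Longer genes had such a peak more often. With the genes split by length into 4 groups of 5014, 1.50%, 2.71%, 3.77% and 4.85% of genes did, short to long, and the 643 genes hit had a median length of 40.3 kb against 24.1 kb for all. The number of annotated starts in each gene was not counted here. Genes with a promoter peak also had another peak of the list more often, 24.9% of 643 against 14.4% of the 19413 other genes. Within these 4 groups the difference was 0.0286, 2.75, 6.85 (1.60 to 13.2) and 10.8 points (4.59 to 17.2), short to long, so it exceeded counting error for genes above the median length.

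The RefSeq promoters of these genes were compared in base composition with all promoters. Promoter windows of 250 bases before to 50 after the start were found for 499 of the 643 genes and 15843 genes in all. For the 104 whose assigned start lay within 100 bp of the window's start, the median GC content was 64.3% (62.0 to 66.0%), against 62.7% over all windows. The ratio of observed to expected CpG was 0.709 (0.593 to 0.763) against 0.763. For the other 395 genes, whose peak lay at another start, the RefSeq window had a median GC content of 64.7% (63.3 to 66.3%) and a CpG ratio of 0.809 (0.777 to 0.839), both above all windows, and 80.0% (75.7 to 83.8%) had over 55% GC against 73.1%. Another start here means one over 100 bp from the window's start, and how many of these 395 windows a peak reached was not counted. Among the 104 windows, the peak crossed the start in 17. In these the CpG ratio was 0.486 (0.205 to 0.669) and the GC content 58.7% (53.7 to 66.0%). So the few promoters with a peak right on the RefSeq start held fewer CpG dinucleotides than windows at large, on 17 windows that were singled out after their values were seen.

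Short motifs were searched on both strands of the 104 windows, and a match is a description of letters only. The SP1-type GC box GGGCGG was in 58.7% against 58.5% of all windows, CCAAT in 35.6% against 36.4% and TATAAA in 10.6% against 9.63%. The CRE palindrome TGACGTCA was in 2.88% against 2.59%, and CACGTG in 4.81% against 8.88%. The AP-1 form TGANTCA was in 10.6% (5.40 to 18.1%) against 5.75%, and the ETS form CCGGAAG in 8.65% (4.03 to 15.8%) against 14.2%. Over these 104 windows every interval contained the share over all windows. In the 395 windows of genes whose peak lay at another start, TATAAA was in 5.57% (3.52 to 8.31%) and GGGCGG in 64.3% (59.4 to 69.0%), below and above the share over all windows, and the other 5 intervals contained it. None of these motifs contains another one whole.

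At the 1 kb limit the list runs on without a gap. The last peaks inside were 999 bp before a start of FAM83H (2.63-fold, 2 fragments) and 997 bp after one of CACNA1G, a T-type calcium channel (3.51-fold, 3 fragments). The first outside were 1006 bp after a start of SRA1 (2.69-fold) and 1010 bp before one of CYRIA (2.73-fold), both with 2 fragments.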

How the data were processed

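Peaks were described from 1 pan-Kcr ChIP library and 1 input library of crotonate-treated T98G cells. The peak list deposited by the authors gives each peak a fold enrichment (a ratio) and, on a −log10 scale, its p-value and q-value, beside its length, summit, genomic class and nearest transcript start. The read depth, the aligner, the peak caller with its threshold and the build were not given in the sources used here. In all, 645 of 4578 assigned protein-coding starts equalled the RefSeq GRCh38.p14 gene start to the base, on 23 chromosomes. Peak coordinates were printed as deposited.

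Fragments were taken as the whole number that gave both the ratio and the Poisson p-value (largest error 6.52e-05 on the −log10 scale). This step was tested on simulated data. Genes were matched by symbol or unique synonym. Intervals were 95% exact binomial, exact Poisson or Newcombe, made in Python 3.11.15 with scipy 1.17.1. Named were the 25 peaks with most fragments, up to 15 genes with 2 peaks, up to 3 genes per family, and 2 peaks on each side of the limit. Members, families and lists were chosen with earlier results of these data known. Alternatives were a higher enrichment, 3 or more fragments, other windows, merged peaks, 1 peak per gene and leaving out single chromosomes. Some results are not reported here because they need withheld items.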

Additional observations from a re-analysis of the deposited data

How the results depend on the processing

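Of 60 recomputed values for the main results, 46 kept their direction and stayed within counting error or 1.5 times the reported count. The settings include leaving out chromosome Y, which held 0 of the 670 peaks, so the values under that setting could not change. At or above the median enrichment 341 peaks at 336 genes remained, and 56.9% held 3 or more fragments. This cut kept all 194 peaks of that height. It kept peaks of 2 fragments only over the lowest local background, so it raised that share by itself. The median length was then 327 bp. Chromosome 20 stood at 0.657 times the average of all chromosomes per gene, against 1.67 in the main count. As the cut selects on fragments and background, neither value is free of it. With 3 or more fragments 194 peaks at 193 genes remained, 23.7% crossed the start, 37.8% of those beside it were upstream, the median length was 341.5 bp and the chromosome 20 ratio was 0.962. Within 500 bp there were 434 peaks at 424 genes, and 29.3% crossed the start, as the smaller window itself sets. The coding excess in height was between 9.22 and 13.1 points in 9 alternatives, which were added after the data were seen. Leaving out chromosome Y was among these alternatives too and could not change the excess. The 13.1 points came from the cut at the median enrichment, which itself selects on fragments. Of 124 family counts under 2 alternatives, 59 moved by over 1.5 times. On 1 strand CCAAT was in 16.3% and GGGCGG in 41.3% of windows. No paired analysis was possible because only a single ChIP library was analysed here. Most peaks rest on 2 fragments, and no depth was given, so a peak not called is not shown to be absent.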
